A study of Drosophila melanogaster with 3 samples.

Results

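The MCM regions described here are those at the centromere ends of 4 chromosome arms of Drosophila melanogaster, where the assembled arm runs toward the pericentric heterochromatin. Members were chosen by position alone, as every peak or region whose start lay at or beyond 21000001 on 2L, 22500001 on 3L or 20400001 on X, or at or before 2000000 on 3R. They were 441 of the 10679 peaks of replicate 1 (4.13%), 341 of the 8553 peaks of replicate 2 (3.99%) and 297 of the 7029 regions of a list made for the whole series (4.23%). The material was Kc167, a female cell line derived from late-stage embryos with the genotype se/e, grown as an asynchronous culture. The 2 immunoprecipitations, labelled as separate chromatin extractions, form a single group. They used a crude mouse monoclonal antibody raised against the yeast MCM complex, directed at the Walker B motif of MCM2-7. The labels also name 1 input sample from a further extraction, which was not analysed here.

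MCM2-7 is the ring-shaped helicase that the origin recognition complex, Cdc6 and Cdt1 load onto DNA before S phase, and loaded rings mark where replication can start. Far more rings are loaded than are fired, so MCM marks potential origins rather than active ones. Pericentric heterochromatin in Drosophila is rich in repeats, poor in genes, carries HP1 and methylated H3K9, and replicates late in S phase. In this assembly some of it stands at the centromere ends of the arms and some in separate Het scaffolds. Coordinates of 2L, 3L and X increase toward the centromere, while those of 3R increase away from it.

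Each peak has a position, a width and a score, assigned by the authors in a unit that the files do not give. Positions are on FlyBase release 5.1. Because no genome or gene annotation of that release was used here, regions are named by arm, start and end, with no gene and no sequence. The arm end was taken as the outermost peak of either replicate, and the blocks were then 1.96 Mb long on 2L, 2.03 Mb on 3L, 2.02 Mb on X and 2 Mb on 3R. They were compared with the remainder of the same arms, which was 20.9, 22.4, 20.4 and 25.9 Mb long, respectively. The sequencing depth is unknown, since the files hold no read counts. With 2 samples of 1 group, a two-sided exact test over samples cannot give a p below 0.5, and peaks of 1 list are not replicates, so comparisons are given as values of both replicates with their SD and no test. Whether the extractions came from separate cultures is not in the labels, so an SD may measure technical spread.

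MCM peaks were sparser at the centromere ends of 3L, X and 2L than on the remainder of these arms, and not at that of 3R. On 3L, the block held 56 peaks in replicate 1 and 37 in replicate 2. This density of 22.9 ± 6.61 peaks per Mb compared with 79.9 ± 13.1 (SD, n = 2 each) on the remainder of the arm, at a ratio of 0.283 ± 0.0361. On X, 100 and 91 peaks gave 47.4 ± 3.16 peaks per Mb, against 90.5 ± 13.8, a ratio of 0.527 ± 0.0455. On 2L, 114 and 75 peaks gave 48.2 ± 14.1 peaks per Mb, against 70.0 ± 12.3, a ratio of 0.681 ± 0.0815. On 3R, 171 and 138 peaks gave 77.3 ± 11.7 peaks per Mb, against 75.7 ± 12.8, a ratio of 1.02 ± 0.0185. The ratio was below 1 in both replicates on 3L (0.309 and 0.258), X (0.495 and 0.559) and 2L (0.739 and 0.623). The difference, block minus remainder, was -57.1 ± 6.54 peaks per Mb on 3L (SD, n = 2), -43.2 ± 10.7 on X and -21.8 ± 1.80 on 2L, each larger than its spread between replicates. For 3R, the difference of 1.60 ± 1.11 peaks per Mb (SD, n = 2) was also larger than its spread, and positive in both replicates (0.818 and 2.39). It was small, however, beside the density of the remainder and beside the SD of the densities themselves. On 3L and X, none of the stretches of 8 consecutive 250 kb steps that could be placed on the remainder (82 and 74, overlapping) was sparser than the block in either replicate. On 2L, 5 of 76 were sparser in both replicates, the lowest being from 14250001 to 16250000 with 60 peaks in replicate 1 and 57 in replicate 2. On 3R, 46 of 96 were sparser in both.

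**Figure D1:**
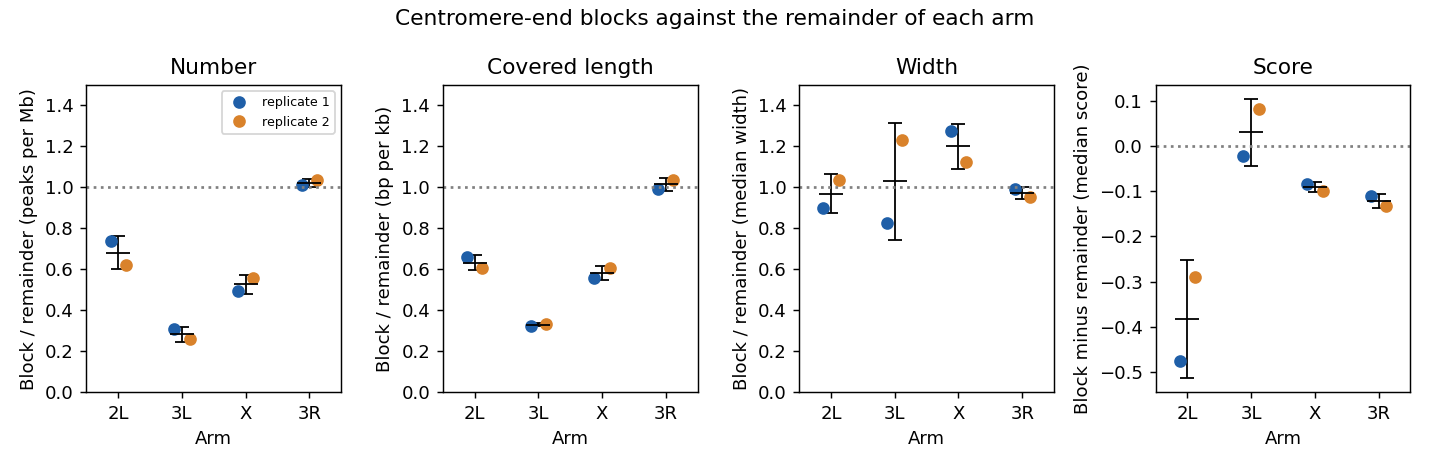
Centromere-end block against the remainder of each arm, for the number of MCM peaks per Mb, the covered length in bp per kb, the median width (all as ratios) and the median score (as a difference of the authors' score); dots are the replicates, horizontal marks their mean and bars the SD (n = 2). Number and covered length lie below 1 on 2L, 3L and X in both replicates and near 1 on 3R, whereas width shows no shared direction and score is lowest on 2L.

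The length of DNA under MCM peaks gave the same order of arms in the mean of both replicates. It was 4.72 ± 0.855 bp per kb in the block of 3L (SD, n = 2), against 14.4 ± 2.90 on its remainder, with ratios of 0.324 and 0.334 in replicates 1 and 2. The ratios were 0.558 and 0.605 on X, 0.659 and 0.607 on 2L, and 0.993 and 1.04 on 3R. X and 2L thus hardly differed in replicate 2, and in the whole-series list their order was reversed, with 0.604 on X and 0.589 on 2L. Compared with blocks of equal length at the opposite, telomere ends, the centromere end carried 0.248 ± 0.0337 times as many peaks on 3L (SD, n = 2), 0.497 ± 0.103 times on 2L, 0.505 ± 0.0211 times on X and 1.14 ± 0.0832 times on 3R. The telomere ends themselves held 91.2 ± 14.3, 96.1 ± 8.29, 94.0 ± 10.2 and 68.3 ± 15.2 peaks per Mb, respectively (SD, n = 2 each). These means were above the remainder's on 3L, 2L and X and below it on 3R, so the ratios depend on both ends.

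On 3L, MCM peaks were nearly missing from the first 1500 kb and then appeared together. In steps of 250 kb from the end inward, replicate 1 had 2, 3, 1, 3, 1, 4, 33 and 9 peaks, and replicate 2 had 0, 2, 0, 1, 0, 4, 23 and 7. None of the 89 steps of 250 kb on the remainder of 3L was empty in either replicate, and their median was 19 peaks in replicate 1 and 16 in replicate 2. The step from 1500 to 1750 kb thus held 33 of the 56 peaks of replicate 1 and 23 of the 37 of replicate 2, more than in 73 of 89 remainder steps in replicate 1 and 64 of 89 in replicate 2. It contained the block's longest run of neighbours no more than 5 kb apart, from 22856782 to 22865331 with 7 peaks in replicate 1, and with 6 in replicate 2. The remaining 34 kb up to the block edge held no peak, and the innermost peak of the block lay 1892 kb from the end in both replicates.

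The sparse part of 3L was broken into long stretches without a peak in either replicate. The longest ran for 358 kb from 24168815 to 24526681, and another of 328 kb lay from 23331259 to 23659678. Stretches of over 100 kb that lay wholly on one side of the block edge made up 59.6% of the block of 3L, against 14.0% of its remainder. A further one crossed the edge, between a peak ending at 22463647 and one starting at 22641348, and is in neither share. Stretches of over 50 kb, counted in the same way, made up 65.2% of the block of 3L and 34.3% of its remainder. In the nearest 1 Mb, 9 peaks of replicate 1 and 3 of replicate 2 were called, 0.101 and 0.0425 times the density of the remainder. Of these 9 peaks, 6 were under 20 bp wide. The outermost was a call of 4 bp in replicate 1 at 24533858, with no partner in replicate 2. The outermost region found in both replicates lay 365 kb from the end, from 24168641 to 24168814, with scores of 2.66 in replicate 1 and 2.60 in replicate 2.

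X was sparse over its nearest 1 Mb as a whole and denser just beyond. Replicate 1 had 5, 4, 15, 4, 25, 28, 10 and 8 peaks in successive steps from the end, and replicate 2 had 6, 4, 12, 3, 24, 26, 8 and 8. The remainder's median was 23 peaks per step in replicate 1 and 20 in replicate 2, so both replicates first reached it in the step that begins at 1000 kb. With steps of 100 kb, both first reached the corresponding median at 500 kb. Both then stayed below it again from 1500 kb to the edge of the block. The nearest 1 Mb held 28 and 25 peaks, a ratio to the remainder of 0.294 ± 0.0215 (SD, n = 2). Beyond it the block's ratio was 0.756 ± 0.0691.

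The MCM peaks of X that remained lay in groups between long free stretches. Stretches of over 50 kb without a peak in either replicate covered 70.4% of the block of X, against 36.0% of its remainder. Those of over 100 kb covered 52.3% of the block and 15.7% of the remainder. The longest measured 186 kb, from 21495681 to 21681724, against 258 kb on the remainder. Yet the median gap between neighbouring peaks was 3.56 kb in replicate 1 and 3.53 kb in replicate 2, against 2.78 and 3.58 kb on the remainder. Runs of at least 5 peaks, each no more than 5 kb from the next, held 50% of the block's peaks in replicate 1 and 39.6% in replicate 2, against 42.4% and 32.8% on the remainder. The longest run had 17 peaks in replicate 1, from 20913585 to 20944557, and 15 in replicate 2, from 21216221 to 21246745. On the remainder the longest runs had 26 and 18 peaks. Peaks with a neighbour within 1 kb made up 47.0% and 51.6% of the block, against 54.1% and 48.2% on the remainder, so the replicates differed in direction. Unlike on 2L, 3L and 3R, the outermost peak of X, which sets the arm end here, was found in both replicates. This region ran from 22415037 to 22415366, with scores of 2.05 in replicate 1 and 1.64 in replicate 2.

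On 2L the gradient was shallower, and where it ended depended on the steps used. Replicate 1 had 7, 7, 13, 20, 10, 12, 24 and 21 peaks per step from the end inward, and replicate 2 had 1, 5, 7, 11, 7, 12, 19 and 13, the innermost step being 211 kb long. Replicate 1 first reached its remainder median of 18 in the step that begins at 750 kb, while replicate 2 first reached its median of 13 in the step that begins at 1500 kb. Both replicates gave 700 kb with steps of 100 kb, 711 kb with steps counted from the block edge and 1500 kb with steps of 500 kb. The nearest 1 Mb had 0.597 times the density of the remainder in replicate 1 and 0.391 times in replicate 2, and the rest of the block 0.886 and 0.865 times. The end step of 2L had 7 peaks in replicate 1, where 15 of the 83 remainder steps had as few, and a single peak in replicate 2, where 2 of 83 did. The outermost peak, which sets the arm end of 2L, was a call of 46 bp in replicate 1 at 22961156, with no partner in replicate 2. The outermost region of 2L found in both replicates lay 86 kb from the end, from 22875033 to 22875173. The longest free stretch measured 172 kb, from 21401028 to 21573388, beginning 1388 kb from the end, against 308 kb on the remainder. Stretches of over 100 kb made up 23.2% of the block and 20.8% of the remainder. Those of over 50 kb made up 49.3% of the block and 40.8% of the remainder.

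3R showed no decline toward its end. Replicate 1 had 28, 14, 28, 12, 32, 38, 16 and 3 peaks per step from the end inward, and replicate 2 had 21, 12, 24, 10, 23, 31, 13 and 4. The end step itself was above the remainder's median of 20 in replicate 1 and 16 in replicate 2, with fewer peaks in 81 of 103 remainder steps in replicate 1 and in 76 of 103 in replicate 2. The sparsest step was the one farthest from the end, from 1750 kb to the block edge, where a free stretch of 145 kb from 1688247 to 1833169 was followed by another of 116 kb from 1834399 to 1950248. The widest region of all 4 blocks stood alone between these stretches, from 1833170 to 1834398, with 1229 bp. Its score was 3.73 in replicate 1, where it was a single peak, and at most 6.15 in replicate 2, where it was split into 2 peaks. The whole-series region nearest the end lay 22.7 kb from it, from 22840 to 23146. The arm end of 3R was set by a call of 12 bp in replicate 2 at 174, with no partner in replicate 1.

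**Figure D2:**
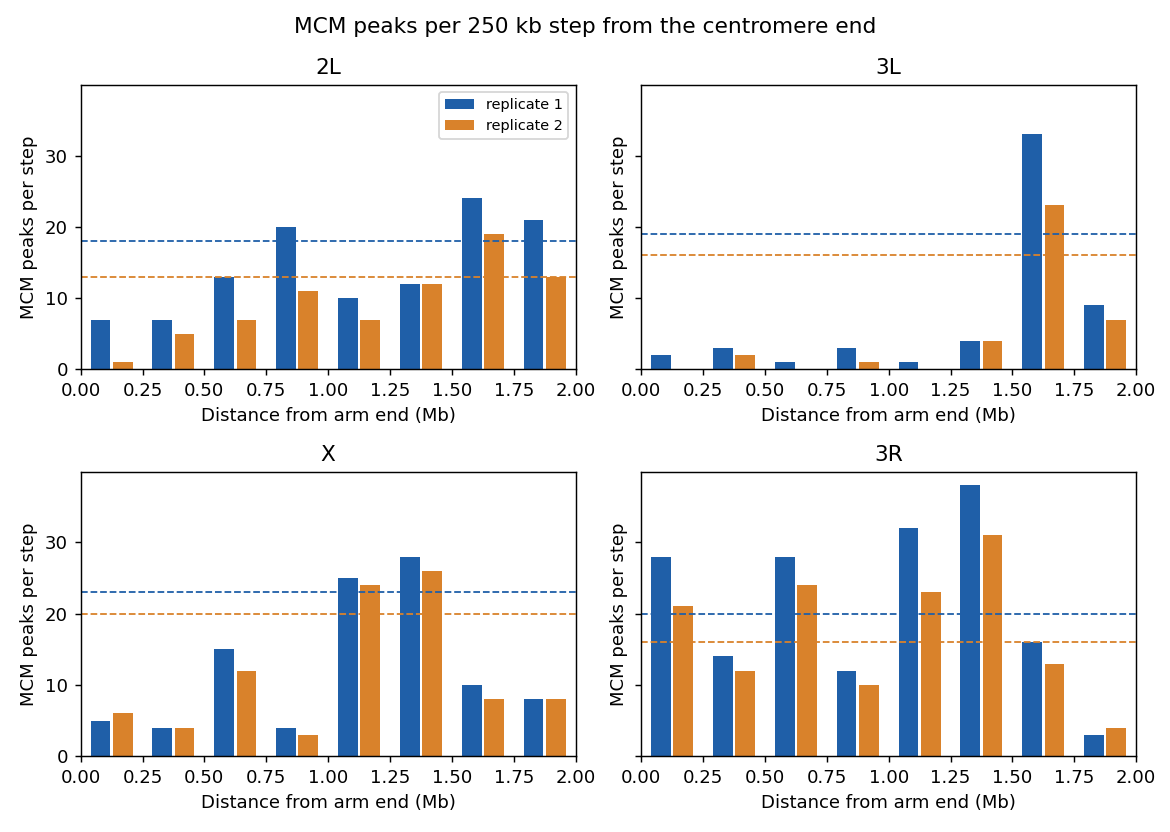
Number of MCM peaks in steps of 250 kb from the centromere end of each arm, per replicate, with dashed lines at the median step of the remainder of the arm in the same replicate; the last step of 2L is 211 kb long, and the last fragments of 34 kb on 3L and 15 kb on X are left out. The steps of the first 750 kb lie far below the lines on 3L, below them on X and 2L, and on both sides of them on 3R.

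The next comparison was whether both extractions found the same MCM peaks near the centromere ends. Over the 4 blocks, 68.0% of replicate 1 peaks (300 of 441) overlapped a replicate 2 peak by at least 1 bp, where 66.4% of all replicate 1 peaks of the genome did, and 67.8% on the remainder of the 4 arms. Likewise 88.3% of replicate 2 peaks (301 of 341) overlapped a replicate 1 peak, where 84.4% did over the genome and 87.2% on the remainder. The shares of the blocks as a whole were close to these backgrounds, with single arms on either side. These shares are the directions of a single overlap, so they have no replicate spread, and their intervals are exact binomial 95% intervals that cover counting error only.

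X stood at the upper end. In its block, 85% of replicate 1 peaks (85 of 100, interval 76.5% to 91.4%) were shared, against 68.5% (66.5% to 70.6%) on the remainder of X. Of replicate 2 peaks, 93.4% were shared (86.2% to 97.5%), against 87.2% (85.5% to 88.8%). Sharing was as high in the sparse nearest 1 Mb of X, with 24 of 28 replicate 1 peaks and 24 of 25 replicate 2 peaks. Where at least 50% of a peak had to be overlapped, 66.0% of replicate 1 peaks in the block and 54.8% on the remainder were shared.

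2L stood at the lower end. In its block, 53.5% of replicate 1 peaks (61 of 114, interval 43.9% to 62.9%) were shared, against 66.2% (63.9% to 68.5%) on the remainder. The low sharing lay in the nearest 1 Mb, where 36.2% (17 of 47, interval 22.7% to 51.5%) of replicate 1 peaks had a partner, while 65.7% (44 of 67) did in the rest of the block. For replicate 2 the shares were 70.8% (17 of 24, interval 48.9% to 87.4%) and 88.2% (45 of 51). In the whole block 82.7% of replicate 2 peaks were shared (interval 72.2% to 90.4%), against 86.3% on the remainder. The remainder's share lay within the intervals of the block and of its nearest 1 Mb, so replicate 2 peaks do not resolve a lower share. The lower share was also seen among the wider peaks. Among replicate 1 peaks of at least 100 bp, 17 of 28 in the nearest 1 Mb were shared (60.7%, interval 40.6% to 78.5%), against 38 of 43 in the rest of the block (88.4%) and 887 of 1001 on the remainder (88.6%, interval 86.5% to 90.5%). None of the 19 narrower ones had a partner, which allows a share of up to 17.6% by the exact interval, against 31.6% of the narrower peaks on the remainder. These peaks also had low scores, as given below. Among replicate 1 peaks at or above the median score of their list, the lower share was not seen over the whole block. There 82.4% were shared in the block of 2L and 79.1% on its remainder. This share was not computed for the nearest 1 Mb alone, where the upper quartile of the replicate 1 score was 2.17. It therefore does not show how high-scoring peaks were shared in the nearest 1 Mb.

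On 3L, 60.7% of replicate 1 peaks (34 of 56) and 89.2% of replicate 2 peaks (33 of 37) were shared, against 67.7% and 86.8% on the remainder. Without calls under 20 bp the direction turned for replicate 1, with 73.3% in the block and 69.7% on the remainder. In its nearest 1 Mb, 1 of 9 replicate 1 peaks and 1 of 3 replicate 2 peaks had a partner, and these are the same region. On 3R the shares were 70.2% and 87.7%, against 68.2% and 88.0% on the remainder. For comparison, 26.2% of the 187 replicate 1 peaks on the Het scaffolds (interval 20.1% to 33.1%) and 35.0% of the 137 replicate 2 peaks there (27.1% to 43.6%) were shared. For replicate 1 peaks of the nearest 1 Mb, the intervals of 2L and of 3L (0.281% to 48.2%, 9 peaks) overlapped that of the scaffolds. Those of X (67.3% to 96.0%) and 3R (66.2% to 85.4%) did not. For replicate 2 peaks the intervals of 2L (48.9% to 87.4%), X (79.6% to 99.9%) and 3R (87.5% to 99.1%) lay above that of the scaffolds. That of 3L (0.840% to 90.6%, 3 peaks) overlapped it.

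**Figure D3:**
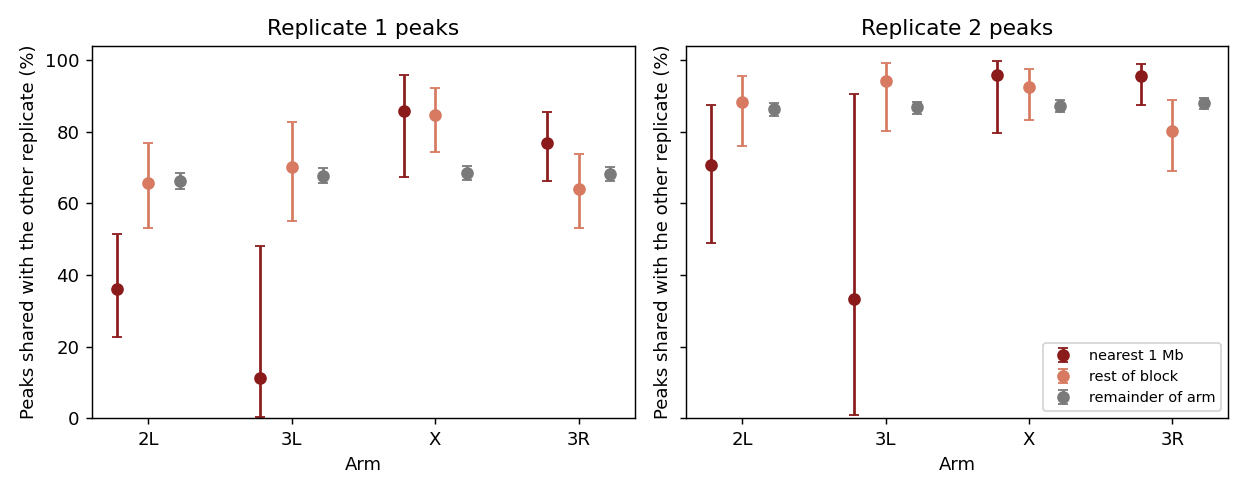
Percentage of MCM peaks with a partner in the other replicate (overlap of 1 bp or more), for the nearest 1 Mb, the rest of the centromere-end block and the remainder of each arm, with exact binomial 95% intervals that cover counting error only; replicate 1 peaks are on the left and replicate 2 peaks on the right. The nearest 1 Mb of 2L (36.2% in replicate 1) and 3L (11.1%) lie below the other values, and both parts of the X block (85.7% and 84.7%) lie above its remainder in replicate 1.

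The balance of the replicates also varied by arm. Replicate 1 outnumbered replicate 2 in peaks by 1.52 times in the block of 2L and 1.51 times in that of 3L, against 1.28 and 1.26 times on their remainders. On X the ratio was 1.10 in the block and 1.24 on the remainder, and on 3R it was 1.24 and 1.27. Unshared peaks of the blocks were short, at a median of 59 bp for the 141 of replicate 1 and of 35.5 bp for the 40 of replicate 2, against 60 and 39 bp on the remainder. Of these, 37.6% in replicate 1 and 57.5% in replicate 2 lay within 1 kb of a peak of the other replicate, against 42.6% and 63.5% on the remainder. The unshared replicate 1 peaks of 3L were the most remote in median distance, with 7.33 kb to the nearest replicate 2 peak, against 1.66 kb for those on its remainder.

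MCM peaks in the blocks were about as wide as elsewhere. Over the 4 blocks, their median widths were 141 bp (replicate 1) and 139 bp (replicate 2), against 135 and 134 bp on the remainder. On X they were somewhat wider, with 175 and 152 bp against 137 and 136 bp, and the ratios were 1.28 and 1.12. Among shared peaks of X alone the ratio was 1.01. The replicates disagreed in direction on 3L, where the ratio was 0.827 in replicate 1 and 1.23 in replicate 2, and on 2L, where it was 0.901 and 1.04. Without calls under 20 bp, the ratio on 3L was 1.18 ± 0.0098 (SD, n = 2). Among shared peaks of 3L it was 1.10 ± 0.027, so both were above 1 in each replicate. Peaks of at least 600 bp made up 7.14% and 8.11% of the 3L block (4 and 3 peaks), against 3.01% and 2.59% on its remainder. On 3R the ratios were 0.993 and 0.951. Calls under 20 bp made up 19.6% of the replicate 1 peaks of the 3L block (11 of 56) and 8.11% of the replicate 2 peaks (3 of 37), against 6.86% and 7.47% on the remainder. Along X, the width was lower in the nearest 1 Mb, with medians of 133 and 126 bp, than in the rest of the block, with 189 and 154 bp. On 3R the order was the opposite, with 144 and 161 bp against 114 and 102 bp.

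Relative to the remainder of the arm, scores were lowest on 2L, most of all within 1 Mb of its end. The median score of the 2L block was 2.13 in replicate 1 and 2.02 in replicate 2, against 2.61 and 2.31 on the remainder, a difference of -0.38 ± 0.13 (SD, n = 2). In the nearest 1 Mb it was 1.76 and 1.78, and in the rest of the block 2.45 and 2.12. It did not follow the distance step by step, since the end step had a median of 2.27 in both replicates, over 7 peaks and 1 peak. The 2L block was poorer still in high-scoring peaks. Among peaks at or above the median score of their list, its density was 0.411 times that of the remainder. The differences were smaller on 3R, with -0.12 ± 0.016 (SD, n = 2), and on X, with -0.091 ± 0.011, both of them negative in each replicate. On 3L the difference was 0.030 ± 0.074, with opposite signs in the replicates. Without calls under 20 bp it was 0.072 ± 0.012, positive in both replicates. Among shared peaks of 3L it was 0.0074 ± 0.052, again with opposite signs. For 3R, the density ratio among peaks at or above the median score was 0.894, on the other side of 1 from the ratio of all peaks.

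**Figure D4:**
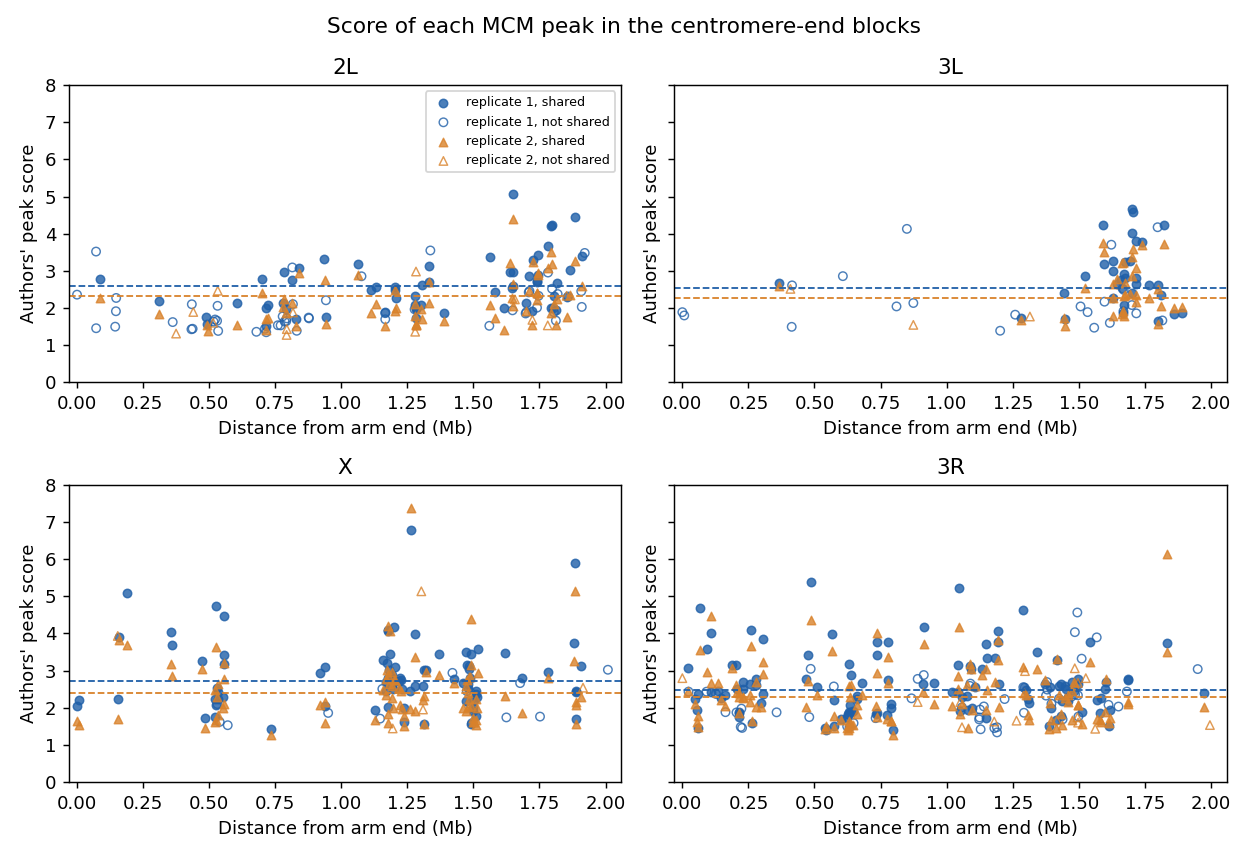
The authors' score of each MCM peak in the centromere-end blocks against its distance from the arm end in Mb, with circles for replicate 1 and triangles for replicate 2, filled where the peak had a partner in the other replicate; dashed lines are the median scores of the remainder of the arm. On 2L the peaks of the nearest 1 Mb lie mostly under the lines and many are open, and on 3L most peaks stand between 1.5 and 1.75 Mb.

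Where both replicates called a peak, their scores ranked alike near the centromere ends and elsewhere. Spearman's rho was 0.876 over 304 overlapping pairs in the blocks and 0.861 over 5484 pairs on the remainder. Pairs come from the same libraries and are not independent, so these values are descriptions. The replicate 1 score was the higher in 84.5% of block pairs and in 86.3% of remainder pairs. By arm this share was 96.8% on 2L (60 of 62), 89.4% on X (76 of 85), 79.4% on 3L (27 of 34) and 76.4% on 3R (94 of 123). On the remainders it was 90.0%, 87.2%, 88.2% and 80.9%, so 3R was lowest there too.

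The whole-series list, whose regions all overlapped peaks of both replicates and which is thus no independent measurement, held 61 regions in the block of 2L, 33 in that of 3L, 85 in that of X and 118 in that of 3R. Of these 297 regions, 290 corresponded to a single peak in each replicate. In 79.5% of them each replicate covered at least 50% of the region, against 78.1% on the remainder. The density ratio to the remainder was 0.602 on 2L, 0.270 on 3L, 0.620 on X and 1.03 on 3R in this list.

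The highest-scoring region of all 4 blocks was on X, from 21151795 to 21152510, 1263 kb from the end. It was 716 bp wide and scored 6.79 in replicate 1 and 7.37 in replicate 2, whereas most pairs of this block had the higher score in replicate 1. The second on X, from 20529681 to 20529997, scored 5.89 and 5.13. On 3R the leading region was from 485169 to 485470, with 5.38 and 4.37, and the next from 1045312 to 1045402, with 5.23 and 4.16. On 2L they were from 21309266 to 21309735, with 5.06 and 4.38, and from 21078032 to 21078141, with 4.46 and 3.27. On 3L they were neighbours, from 22828158 to 22829072 with 4.59 and 3.58, and from 22833194 to 22833382 with 4.66 and 3.37. The former was also the widest region of the 3L block, with 915 bp. Of these 8 regions, the one on 3R from 485169 to 485470 was the only one within 1 Mb of its arm end. The widest regions of the other blocks were from 20913517 to 20914446 on X, with 930 bp, and from 21828332 to 21829086 on 2L, with 755 bp.

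At the edges of the blocks, the nearest whole-series regions scored between 1.95 and 3.66. On 2L the whole-series region just inside was from 21051827 to 21052123 with a score of 3.0, and that just outside from 20961609 to 20961798 with 2.37. On 3L they were from 22641348 to 22641472 with 1.95 and from 22400816 to 22401185 with 3.66. On X they were from 20507913 to 20508002 with 2.71 and from 20395735 to 20396282 with 1.99. On 3R they were from 1975518 to 1975581 with 2.22 and from 2036016 to 2036107 with 2.85.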

How the data were processed

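Chromatin immunoprecipitates were sequenced on the Illumina platform, per the labels' protocols. The authors deposited peak lists in GFF format 3 with PeakSeq named as the caller and FlyBase release 5.1 as the build, per the file headers. No source used here gives the aligner, the caller's settings or how the input was used. Each peak carries a score deposited by the authors, whose unit the headers leave unstated, and it was used as it stands. The other deposited values are the start and end of each peak.

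Members were selected by start. Width was end minus start plus 1. Arm spans ran from the outermost start to the outermost end of both replicates, and steps of 250 kb were counted from the centromere end. A shared peak overlapped at least 1 bp of some peak in the other list. Values are means and SDs of 2 replicates, and intervals are exact Clopper-Pearson at 95%. Functions were tested on simulated data. Python 3.11.15, pandas 2.3.3 and scipy 1.17.1 were used.

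The members, measures and alternatives were chosen with earlier results of these data known, and the split at 1 Mb and the width limit of 100 bp after the values were seen. Named regions are, per block, the 2 of highest score, the widest, those nearest the arm end and the block edge, and the longest free stretch. The gene table given belongs to release 6, so no genes were assigned.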

Additional observations from a re-analysis of the deposited data

How the results depend on the processing

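Of 128 alternatives, 100 left a value within 1 SD of the replicates or, for shares, within its binomial interval. The cause was not tested for any of the others. The 100 include every alternative that left out a replicate. Their outcome was fixed in advance, because each of 2 values lies within 1 SD of their mean, so they say nothing on stability. Among peaks at or above the list's median score, the density ratio was 0.411 on 2L and turned to 0.894 on 3R, the width ratio was 1.05 on X and 1.05 on 3R, and replicate 1 sharing was 82.4% on 2L, 81.5% on 3L, 94.3% on X and 81.5% on 3R, against 79.1%, 81.1%, 79.4% and 80.5% on the remainders. The density ratio came to 0.329 on 3L and 0.582 on X in covered length, to 0.620 on X in the whole-series list, and to 1.12 on 3R after merging neighbours within 1 kb. Among shared peaks alone, the width ratio was 1.01 on X and 0.921 on 3R, and the score difference was -0.14 on X. Without peaks under 20 bp, replicate 1 sharing on 3L was 73.3%, against 69.7% on the remainder, and the score difference was -0.10 on X and -0.095 on 3R. With at least 50% of a peak overlapped, replicate 1 sharing was 43.0% on 2L, 66.0% on X and 59.1% on 3R, replicate 2 sharing was 85.7% on X and 80.4% on 3R, and replicate 1 sharing in the nearest 1 Mb of X was 64.3%. The distance at which the count first reached the remainder's median, the mean of both replicates, was 1500 kb on 3L and 1000 kb on X. With steps of 500 kb it was 2267 ± 1085 kb (SD, n = 2) on 3L, where the replicates disagreed. It was 1600 kb on 3L and 500 kb on X with steps of 100 kb. With steps counted from the block edge, it was 1534 kb on 3L and 1015 kb on X. On 2L it was 1125 kb, with 750 kb without replicate 2 and 1500 kb without replicate 1, and both replicates gave 700 kb with steps of 100 kb, 711 kb with steps from the block edge and 1500 kb with steps of 500 kb. With either replicate left out, the density ratio ran from 0.623 to 0.739 on 2L, from 0.258 to 0.309 on 3L, from 0.495 to 0.559 on X and from 1.01 to 1.04 on 3R. No paired analysis was possible because the peak lists come from a single group. Without read counts, depth sets no interval here.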
